A study of Mus musculus with 3 samples.

Results

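The genes of the proteasome were examined by RNA-seq in melan-a cells, an immortalized line of mouse melanocytes on a C57BL/6J background. The members were the protein-coding genes whose mouse symbol begins with Psma, Psmb, Psmc, Psmd, Psme, Psmf or Psmg followed by a number. They came to 50 entries with 48 symbols, of 22698 genes in the files and 22309 protein-coding genes, because *Psmb9* and *Psmd14* were each listed under 2 Ensembl identifiers. All 3 libraries belonged to 1 group of untreated cells, labelled replicates 1, 3 and 4, which had been grown in RPMI medium with 10% fetal bovine serum, 200 nM of the phorbol ester TPA and 200 pM cholera toxin. The labels describe the melanocytes as taken from Ink4a-ARF-/- mice. The labels do not say whether the replicates were separate cultures, so their spread may be technical. With a single condition there was no comparison between groups, and 3 replicates cannot give a two-sided exact permutation p below 0.25, so ratios between subunits are given within each replicate with their SD (n = 3) and without a p-value.

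The proteasome is the large protease that degrades proteins marked with ubiquitin in the cytosol and nucleus. Its barrel-shaped core particle is built of outer alpha rings, which gate the entrance, and inner beta rings, which carry the cutting sites. A regulatory cap, made of a base and a lid, binds the ubiquitin chain, removes it, unfolds the protein and feeds it into the core. Interferon induces the immune catalytic subunits, which replace the standard ones in newly built cores and change the peptides offered to MHC class I, a pathway through which pigment-cell antigens are shown to T cells.

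Levels are in FPKM, which divides the reads of a gene by its length and by the depth of sequencing, and the authors had scaled the libraries to each other by the trimmed mean of M values (TMM). Low values of genes with 1 annotated transcript fell near whole reads when the 3 scaled libraries were taken to hold 53800000, 47000000 and 66300000 reads. For a gene of 1 kb, 3 reads, taken here as the lowest countable level, came to 0.0558, 0.0638 and 0.0452 FPKM. All 7 melanocyte markers were present, from 22.1 FPKM for *Mitf* to 3144 FPKM for *Tyrp1*. Of 8 leukocyte markers, *Ptprc*, *Cd3e* and *Itgam* were among those at 0 in every replicate and *Lyz2* alone reached 1 FPKM, so that the list summed to between 12.53 and 13.53 FPKM. None of 4 keratinocyte markers and 1 of 4 fibroblast markers (*Col1a1*, mean 1.54 FPKM) reached 1 FPKM in all replicates. *Cdkn2a*, the gene at the labelled deletion, was listed at 19.24, 16.49 and 24.32 FPKM in replicates 1, 3 and 4, and a value for the whole gene does not show which of its exons gave the reads.

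To show the DNA in front of the catalytic genes compared further on, the promoters of *Psmb5* and *Psmb6*, a pair of standard catalytic subunits, and of *Psmb8* and *Psmb9*, their immune counterparts, were taken from RefSeq (build GRCm38.p6, 300 bases each, ending 50 bases after the start of the gene), together with that of the lid subunit gene *Psmd12*, the cap gene with the lowest level. They lie at chr14:54617946-54618245 (- strand) for *Psmb5*, chr11:70525107-70525406 (+ strand) for *Psmb6*, chr17:34197945-34198244 (+ strand) for *Psmb8*, chr17:34187281-34187580 (- strand) for *Psmb9* and chr11:107479278-107479577 (+ strand) for *Psmd12*, and each is written along its gene's strand from 5′ to 3′. Capitals mark TGACNNNGC, the letters of the antioxidant response element, in *Psmb5*, *Psmb6* and *Psmd12*. They mark TTCNNNGAA, the letters of the gamma-activated site, in *Psmb8*, and CCAAT in *Psmb9*. The second run of capitals in *Psmd12* is CCGGAAG, the letters bound by ETS factors. Both runs in *Psmd12* and the one in *Psmb9* are matches on the opposite strand, so the capitals there show the reverse complement of the motif.
Psmb5: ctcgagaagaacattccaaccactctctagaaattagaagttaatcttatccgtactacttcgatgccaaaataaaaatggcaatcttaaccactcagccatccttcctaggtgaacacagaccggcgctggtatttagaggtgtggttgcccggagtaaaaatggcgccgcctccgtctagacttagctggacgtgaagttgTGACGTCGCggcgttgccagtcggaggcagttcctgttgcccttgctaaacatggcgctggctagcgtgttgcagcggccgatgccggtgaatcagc
Psmb6: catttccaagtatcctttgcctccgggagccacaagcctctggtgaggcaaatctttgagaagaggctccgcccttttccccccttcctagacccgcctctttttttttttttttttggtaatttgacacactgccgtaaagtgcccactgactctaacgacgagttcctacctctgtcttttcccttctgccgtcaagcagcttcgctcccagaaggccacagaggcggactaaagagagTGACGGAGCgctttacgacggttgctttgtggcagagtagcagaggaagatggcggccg
Psmb8: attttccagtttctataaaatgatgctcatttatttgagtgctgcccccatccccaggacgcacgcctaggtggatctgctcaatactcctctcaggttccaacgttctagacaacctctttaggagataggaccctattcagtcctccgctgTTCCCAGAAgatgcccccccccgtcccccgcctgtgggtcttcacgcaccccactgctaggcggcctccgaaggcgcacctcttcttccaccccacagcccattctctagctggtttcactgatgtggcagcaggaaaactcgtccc
Psmb9: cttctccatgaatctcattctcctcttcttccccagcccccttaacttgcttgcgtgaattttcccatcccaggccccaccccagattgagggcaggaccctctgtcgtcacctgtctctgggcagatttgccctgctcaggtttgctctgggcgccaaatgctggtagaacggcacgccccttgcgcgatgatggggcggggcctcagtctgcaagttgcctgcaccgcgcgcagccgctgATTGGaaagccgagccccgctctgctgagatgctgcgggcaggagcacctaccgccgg
Psmd12: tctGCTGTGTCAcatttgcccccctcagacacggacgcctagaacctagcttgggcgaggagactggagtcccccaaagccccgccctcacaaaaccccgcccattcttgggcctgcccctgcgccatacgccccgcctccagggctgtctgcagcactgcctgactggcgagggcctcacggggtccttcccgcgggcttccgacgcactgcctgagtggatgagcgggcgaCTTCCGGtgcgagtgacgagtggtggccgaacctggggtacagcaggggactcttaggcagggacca

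Promoters were found for 40 of the 48 symbols, with none for *Psma8*, *Psmb1*, *Psmb2*, *Psmb7*, *Psmc3*, *Psmd3*, *Psmd7* and *Psmg2*. On both strands, 11 motifs were searched, and none of those in capitals overlapped another of the 11. The ETS letters CCGGAAG stood in 14 of 40 member promoters (35%) and in 1933 of 14840 promoters of all genes (13%). The 14 were those of *Psma6*, *Psmc1*, *Psmc2*, *Psmc6*, *Psmd2*, *Psmd4*, *Psmd6*, *Psmd11*, *Psmd12*, *Psmd13*, *Psme3*, *Psme4*, *Psmg1* and *Psmg3*, and so held 3 ATPases and 6 other cap subunits but 1 core subunit. TGACNNNGC, the element through which Nrf1, encoded by *Nfe2l1*, is known to raise proteasome genes, stood in 6 of 40 (15%, against 15.1% of all promoters), namely *Psmb5*, *Psmb6*, *Psmc6*, *Psmd9*, *Psmd12* and *Psme4*. The interferon-stimulated response element (ISRE) stood in 5 of 40 (12.5%, against 3.89%), which were *Psmb3*, *Psmd4*, *Psmd9*, *Psme1* and *Psmg4*. The ISRE letters were not in the windows of *Psmb8*, *Psmb9* and *Psmb10*.

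The remaining motifs were spread as follows. TTCNNNGAA stood in 7.5% of the member promoters, those of *Psmb8*, *Psmd2* and *Psmg1*, against 9.09% of all. GCCNNNGGC, bound by TFAP2 factors, was in 5 of 40 (12.5%, against 23.2%), and TCATGTG, the M-box bound by MITF in pigment genes, was in 1 of 40 (2.5%, against 3.48%), that of *Psme3*. The E-box CACGTG was in 10% against 9.35%, CCAAT in 35% against 42.5%, the GC box GGGCGG in 57.5% against 51.4%, TATAAA in 10% against 14.4% and the YY1 letters AAGATGGCG in 5% against 2.23%. A match of letters is a description of the sequence and does not show that a factor binds there.

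Proteasome genes stood high among the genes of melan-a cells. Of the 50 entries, 44 reached 1 FPKM in all 3 replicates, against 44.8% of protein-coding genes, and 40 had at least 10 FPKM, against 22.1%. The median of the members' mean levels was 37.955 FPKM, and that of all protein-coding genes 0.353 FPKM. The median percentile rank among protein-coding genes was 91.8, with 27 entries in the highest decile and 42 in the highest quartile. Together they made up 0.716%, 0.718% and 0.714% of the summed FPKM of replicates 1, 3 and 4. The 6 entries under 1 FPKM were *Psmb8*, *Psmb11*, *Psma8*, both entries of *Psmb9* and the second entry of *Psmd14*. Of the 50 entries, 3 were at 0 in all replicates, against 30.3% of protein-coding genes. These 3 were *Psma8*, 1 entry of *Psmb9* and the second entry of *Psmd14*.

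**Figure D1:**
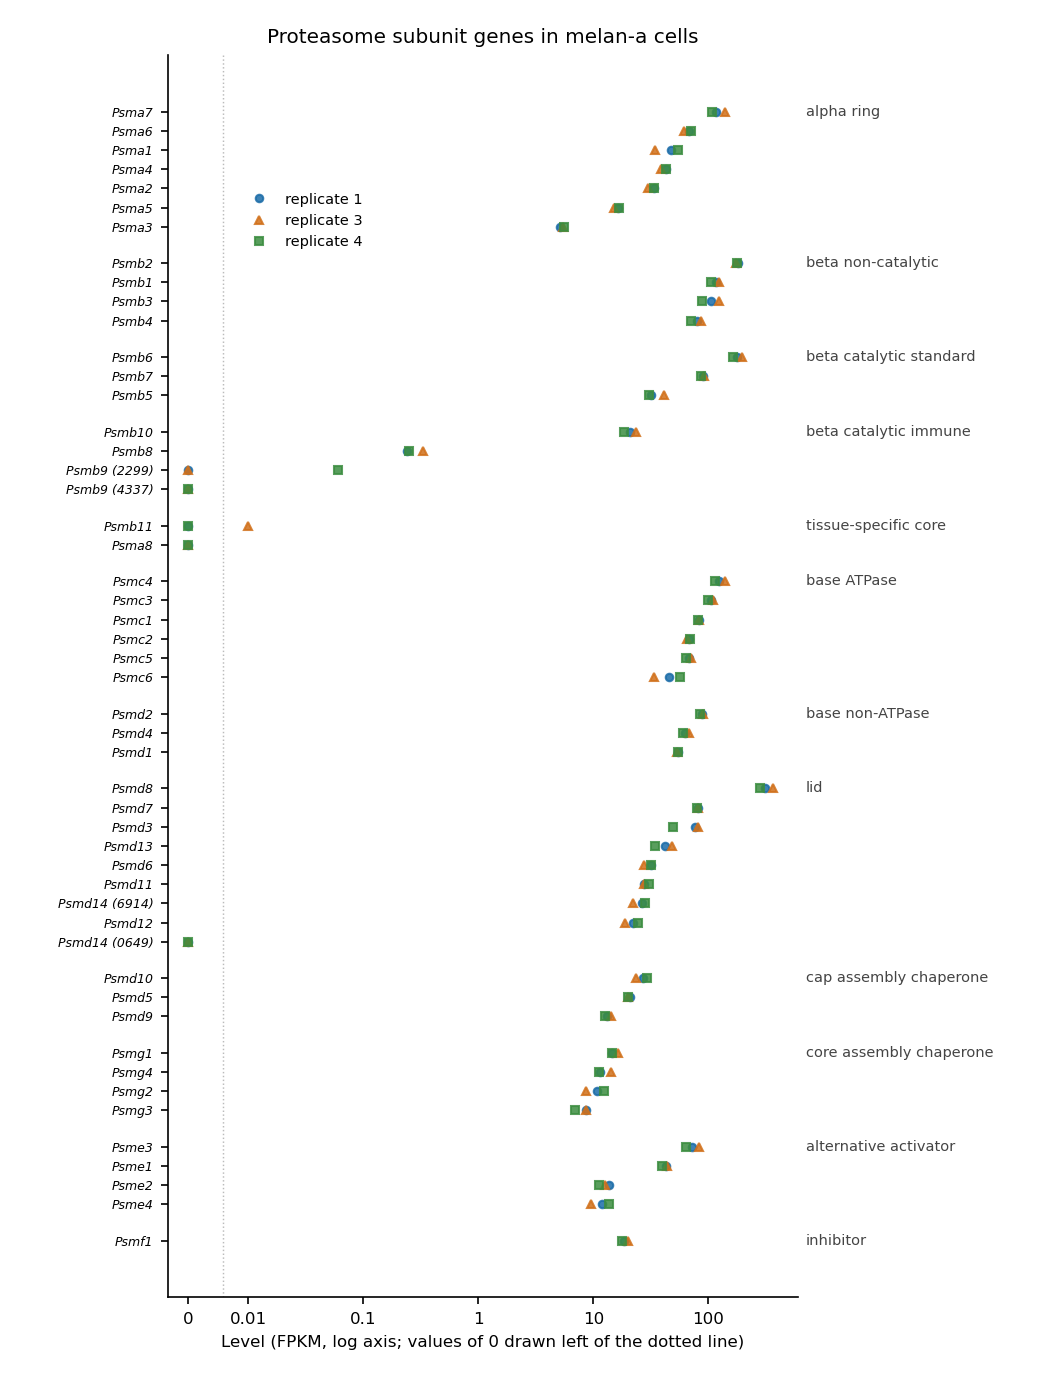
Level (FPKM, log axis) of each of the 50 proteasome entries in replicates 1, 3 and 4, grouped by role, with values of 0 drawn left of the dotted line; the 2 entries of *Psmb9* and of *Psmd14* carry the last digits of their identifiers. The 44 entries above 1 FPKM lie between 5.33 (*Psma3*) and 317.5 FPKM (*Psmd8*) on average, and the immune and tissue-specific core subunits other than *Psmb10* lie under 1 FPKM.

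The alpha ring genes, whose products form the outer rings and the gate of the core, covered a 22.6-fold range. *Psma7*, which encodes alpha4, was highest with 116.14, 138.42 and 107.58 FPKM in replicates 1, 3 and 4. *Psma3*, which encodes alpha7, was lowest with 5.1, 5.38 and 5.51 FPKM. These groups of values did not approach each other, and the level of *Psma7* was 22.7 ± 3.10 times that of *Psma3* (SD, n = 3). Between them stood *Psma6* (alpha1, 66.6 ± 4.82 FPKM), *Psma1* (alpha6, 45.4 ± 10.2), *Psma4* (alpha3, 41.5 ± 2.28), *Psma2* (alpha2, 32.3 ± 2.41) and *Psma5* (alpha5, 16.1 ± 0.777). *Psma1* overlapped *Psma4*, since it was above it in replicates 1 and 4 (46.79 against 42.98 and 54.8 against 42.65 FPKM) and below it in replicate 3 (34.54 against 38.87 FPKM).

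The median of the beta ring genes was above that of the alpha ring genes, although single genes overlapped, with *Psma7* above 5 of the 7 beta genes by mean level. Among the non-catalytic ones, which hold the inner rings together, *Psmb2* (beta4) had 180.45, 174.33 and 178.43 FPKM, *Psmb1* (beta6) 116.76, 124.53 and 104.29 FPKM and *Psmb3* (beta3) 105.68, 122.91 and 88.52 FPKM. *Psmb4* (beta7) was the lowest of these 4 with 79.87, 86.15 and 69.76 FPKM. The median over the 7 standard beta subunits was 105.7 ± 17.2 FPKM and that over the 7 alpha subunits 40.1 ± 4.78 FPKM (SD of 3 replicate medians). The alpha to beta ratio of the medians was 0.407, 0.281 and 0.482 in replicates 1, 3 and 4, below 1 in each. It became 0.658 when each gene was rescaled to the length of its longest coding transcript.

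The 3 standard catalytic subunits, which are made in equal number in a core, differed in level. *Psmb6*, which encodes the caspase-like beta1, had 178.1, 194.57 and 162.84 FPKM. *Psmb7*, which encodes the trypsin-like beta2, had 89.99, 91.61 and 85.78 FPKM. *Psmb5*, which encodes the chymotrypsin-like beta5 that proteasome inhibitor drugs mainly block, had 31.92, 40.84 and 30.47 FPKM. Their order was the same in every replicate, with *Psmb6* at 5.23 ± 0.420 times and *Psmb7* at 2.63 ± 0.331 times the level of *Psmb5*. Of the 822 words of 50 bases in the longest *Psmb5* transcript, however, 60.3% also occurred elsewhere in mm9, most of them at chr7:3181100-3181960, where no gene is annotated, and a read no longer than such a word cannot be placed uniquely. With each level divided by the share of words found in its own gene alone, *Psmb6* was 2.13 ± 0.171 times and *Psmb7* 1.20 ± 0.151 times as high as *Psmb5*.

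Of the immune catalytic subunits, *Psmb10* was near 20 FPKM and *Psmb8* was low but countable. *Psmb10*, which encodes beta2i, had 20.85, 23.43 and 18.53 FPKM. *Psmb8* (ENSMUSG00000024338, chr17:34334666-34338399 in mm9, + strand), which encodes beta5i, had 0.24, 0.33 and 0.25 FPKM. Over its joined exons this came to about 35.3, 42.4 and 45.3 reads, where 3 reads would have been 0.0204, 0.0233 and 0.0165 FPKM. *Psmb8* was therefore above the floor in each replicate, and no word of its transcript was repeated elsewhere and no gene overlapped it on its strand. *Psmb10* stood at 77.3 ± 8.41 times the level of *Psmb8*, so that immune subunits differed from each other more than standard subunits did.

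The standard subunit was the higher one in each pair that could be compared. *Psmb5* was 133, 124 and 122 times the level of *Psmb8* in replicates 1, 3 and 4 (126 ± 5.95). This ratio was 79.5 with the lengths of the longest coding transcripts and 318 with each value divided by the share of its words found in its own gene alone. With a pseudocount of 1 FPKM, which exceeds the level of *Psmb8* itself, it was 27.7. *Psmb7* was 4.32, 3.91 and 4.63 times the level of *Psmb10* (4.29 ± 0.361). *Psmb10* also came closest to *Psmb5*, which was 1.64 ± 0.106 times as high as deposited and 4.13 ± 0.267 times after the same division. With *Psmb9* taken as listed, which is not a reading of that gene (its entries are described next), the immune subunits made up 6.57%, 6.77% and 6.32% of the summed level of the 6 catalytic subunits. With the lengths of the longest coding transcripts the mean share was 3.76% in place of 6.56%, and without *Psmb6* and *Psmb9* it was 14.6%.

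*Psmb9*, which encodes beta1i, could not be read from these values. Its entries, ENSMUSG00000024337 at chr17:34318932-34324697 and ENSMUSG00000092299 at chr17:34318933-34324709 (mm9, both on the - strand), share 3647 exon bases and leave 1 and 12 bases of their own. The former was listed at 0 in all replicates and the latter at 0, 0 and 0.06 FPKM. By default htseq-count leaves out a read that falls on 2 genes, but the counting mode used is not given. Among all protein-coding genes of the files, 79 of 102 with at least 99% of their exon bases in another gene on the same strand were at 0 in all replicates (77.5%), against 30.4% of the 21124 with no shared bases. Why such genes were at 0 was not tested. The listing at 0 does not show that *Psmb9* was silent, and no ratio to *Psmb6* was formed. The second entry of *Psmd14* (338 exon bases, ENSMUSG00000090649), at 0 in all replicates, lies wholly inside the exons of the first and covers 11.96% of them.

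**Figure D2:**
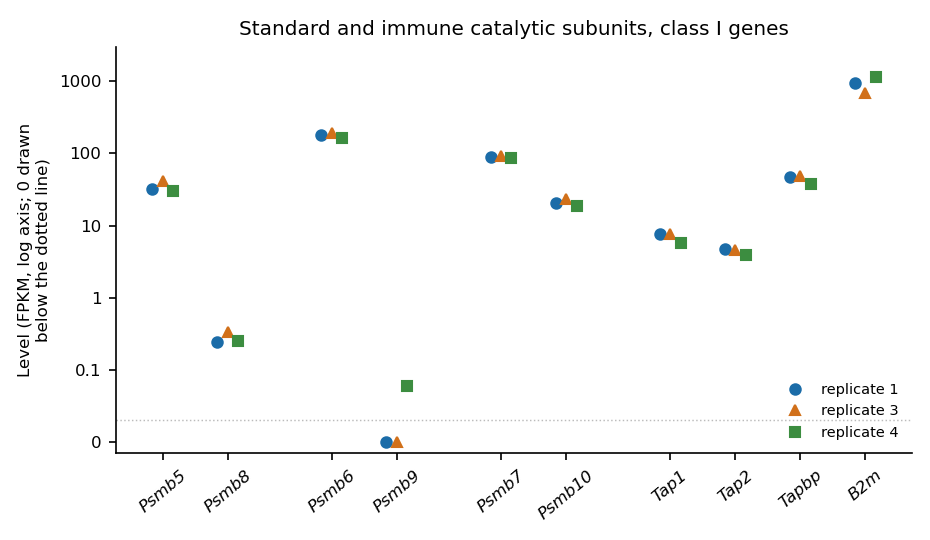
Level (FPKM, log axis) of the standard and immune catalytic subunits, in pairs of the same ring position, and of 4 class I antigen processing genes in replicates 1, 3 and 4, with 0 drawn below the dotted line and the 2 *Psmb9* entries added together. *Psmb5* stands more than 100 times above *Psmb8* in each replicate, *Psmb10* near 20 FPKM, and *Psmb9*, whose entries share nearly all exon bases, at 0 in 2 replicates.

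Other genes of the class I and interferon pathway were present in the same cells. All 10 genes of this list that are in the files had at least 1 FPKM in every replicate (the protein-coding background is 44.8%). *B2m*, the light chain of MHC class I, had 956.92, 695.27 and 1166.43 FPKM, and *Tapbp*, which encodes tapasin, had 46.62, 49.21 and 37.95 FPKM. *Tap1*, which encodes a subunit of the peptide transporter and begins within the 5′ end of *Psmb9* on the opposite strand (chr17:34324498-34334170), had 7.59, 7.67 and 5.70 FPKM, and its partner *Tap2* had 4.74, 4.61 and 3.93 FPKM. *Tap1*, *Psmb8* and *Tap2* lie in a row on the + strand of chromosome 17, and *Psmb8* was the lowest of the 3 in each replicate. *Irf1*, which carries the interferon signal to these genes, had a mean of 6.16 ± 0.429 FPKM.

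The tissue-specific core subunits were not detected. *Psma8*, the alpha4 form known from testis, was at 0 in all 3 replicates, where 3 reads would have been 0.0326, 0.0373 and 0.0264 FPKM. *Psmb11*, the beta5 form of the thymic cortex (chr14:55244147-55248393), was at 0, 0.01 and 0 FPKM, which is under its floor of 0.0131, 0.0150 and 0.0107 FPKM. Their standard counterparts *Psma7* and *Psmb5* were at 120.7 ± 15.9 and 34.4 ± 5.62 FPKM.

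The 9 base subunits of the cap covered a narrower range of levels than the lid, with the highest at 2.78 times the lowest against 14.6 times, or 3.68 times over the lid without *Psmd8*. The 6 ATPases, which form the ring that unfolds the substrate, ran from *Psmc4* (Rpt3) with 122.47, 138.15 and 113.98 FPKM to *Psmc6* (Rpt4) with 45.61, 33.27 and 56.06 FPKM, and these are also the highest and lowest of the base. *Psmc3* (Rpt5, 104.6 ± 4.78 FPKM), *Psmc1* (Rpt2, 82.4 ± 0.772) and *Psmc2* (Rpt1, 67.2 ± 2.11) stood between, as did *Psmc5* (Rpt6), with 67.78, 69.81 and 63.41 FPKM. *Psmc2* and *Psmc5* could not be ordered, since *Psmc2* was the higher in 1 replicate of 3. The non-ATPases *Psmd2* (Rpn1, where shuttle factors dock, 87.2 ± 2.91 FPKM), *Psmd4* (Rpn10, a ubiquitin receptor, 63.4 ± 3.71) and *Psmd1* (Rpn2, a scaffold, 54.0 ± 0.774) covered a 1.61-fold range.

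The lid held both the highest and the lowest cap genes. *Psmd8*, which encodes Rpn12, had 312.76, 360.67 and 279.15 FPKM, the highest level of the 50 entries and rank 141 among protein-coding genes. *Psmd12*, which encodes the scaffold subunit Rpn5, had 22.24, 18.71 and 24.48 FPKM, and *Psmd8* was 14.9 ± 4.01 times as high. *Psmd14*, which encodes Rpn11, the enzyme that cuts off the ubiquitin chain, had 26.26, 22.08 and 27.89 FPKM. Its partner *Psmd7* (Rpn8), with which it forms a dimer in the lid, had 80.71, 80.32 and 79.96 FPKM and the smallest replicate spread among the lid genes. *Psmd3* (Rpn3) had 75.71, 81.65 and 49.37 FPKM and was lower in replicate 4 than in the other two. *Psmd13* (Rpn9, 41.6 ± 7.19 FPKM), *Psmd6* (Rpn7, 30.2 ± 2.23) and *Psmd11* (Rpn6, which bridges lid and core, 28.4 ± 1.51) lay between.

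Over all their subunits, core and cap were close to balance, and the side that came out higher depended on the summary. The median over the 14 standard core subunits was 72.6 ± 1.94 FPKM and that over the 17 cap subunits 65.1 ± 4.32 FPKM. Their ratio was 1.09, 1.09 and 1.17 in replicates 1, 3 and 4 (1.12 ± 0.0463), above 1 in each. Summed over the same subunits, however, the core stood at 0.845 of the cap, below 1. Base and lid differed by median, with 68.8 ± 1.02 and 35.9 ± 2.68 FPKM. Their ratio was 1.84, 1.83 and 2.09 (1.92 ± 0.147), or 1.14 when subunits were summed. The cap and lid sums include *Psmd8*, the highest member at a mean of 317.5 FPKM, and sums without it were not formed. All these sets hold only genes with a Psm symbol. They leave out the lid component gene *Shfm1* (mean 209.4 FPKM) and the proteasome-bound gene *Adrm1* (22.3 FPKM). Balances with these genes were not formed.

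**Figure D3:**
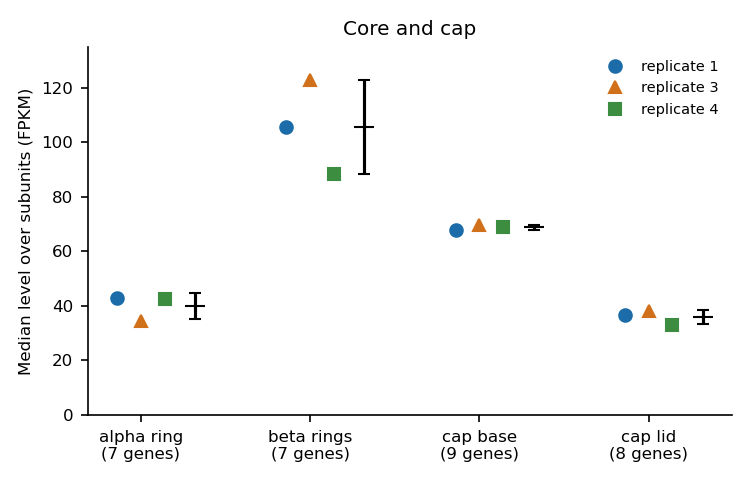
Median level (FPKM) over the 7 alpha, 7 standard beta, 9 base and 8 lid subunits in replicates 1, 3 and 4, with black bars for the mean ± SD of the 3 replicate medians. The beta medians (88.52 to 122.91 FPKM) lie above the alpha medians (34.54 to 42.98 FPKM), and the base medians (67.78 to 69.81 FPKM) above the lid medians (32.94 to 38.105 FPKM), in each replicate.

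Subunits that occur in equal number in the particle were therefore not equal in RNA. Ordered by mean level, 7 of 13 neighbouring pairs of core subunits and 11 of 16 neighbouring pairs of cap subunits kept their order in all 3 replicates, and the rest could not be ordered. The highest core subunit was 33.5 times the lowest and the highest cap subunit 14.6 times the lowest. In comparison, the 9 genes of the COP9 signalosome, a complex related to the lid, covered a 10.4-fold range and the 8 genes of the CCT chaperonin a 2.54-fold range. The COP9 range ran from *Cops7b* (9.06 FPKM) to *Cops7a* (94.5 FPKM), which encode forms of the same subunit. It is therefore not a range over subunits of equal number. *Gps1*, also of this complex (13.4 FPKM), had 79.1% of its 50-base words elsewhere in mm9.

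Part of the core genes have near-identical copies in the genome, and these genes were spread widely in level. Of the 48 symbols, 29 had no 50-base word of their longest coding transcript elsewhere in mm9, and 11 had over 10% of them elsewhere, among them 6 of the 14 core and 3 of the 17 cap subunits. The shares were 63.5% for *Psmb3*, 60.3% for *Psmb5*, 56.6% for *Psma5*, 45.3% for *Psma4*, 30.5% for *Psma3* and 12.8% for *Psmb7*. The lowest pair of core genes, *Psma3* and *Psma5*, were among them, whereas *Psmb3* was above the core median. Over the 8 core subunits with at most 10% of words elsewhere the range of levels was 5.53-fold, from *Psma2* to *Psmb6*, and the core to cap ratio was 1.54. Dividing each level by the share of words found in its own gene alone moved *Psmb5* to 86.7 FPKM, *Psma5* to 37.0 FPKM and *Psma3* to 7.67 FPKM. It moved *Psmb3* to 289.6 FPKM, which became the highest core gene in place of *Psmb6*, and the range was 37.8-fold. This division takes it that no read of a shared word was counted for its gene. Annotated copies had values of their own, with *Gm4950*, a copy of *Psmb3*, at 17.1 FPKM and *Gm8394*, a copy of *Psma5*, at 14.3 FPKM on average. How the aligner placed the reads of shared words was not tested.

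**Figure D4:**
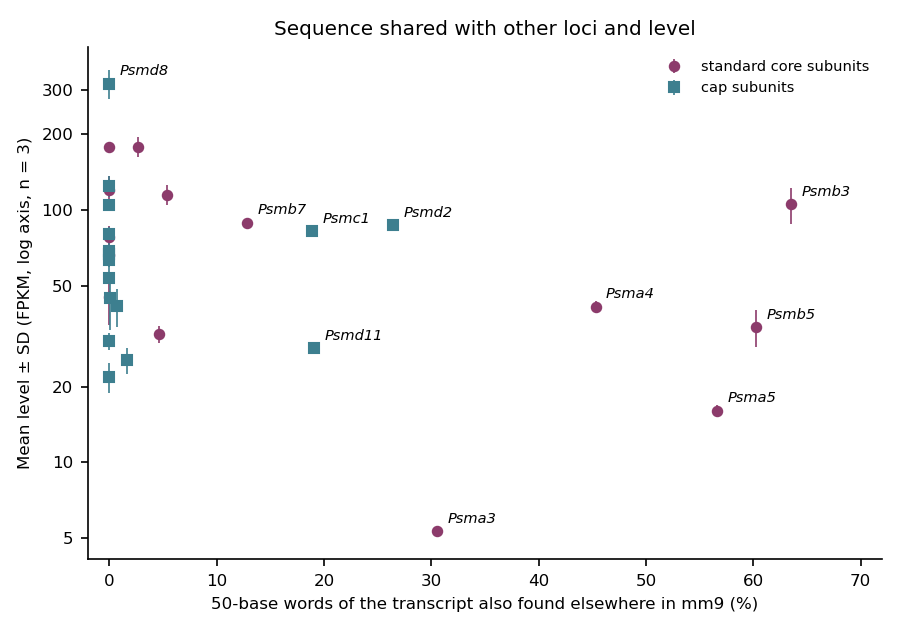
Mean level ± SD (FPKM, log axis, n = 3) of the 14 standard core and 17 cap subunits against the percentage of 50-base words of the longest coding transcript that also occur elsewhere in mm9. Most cap subunits lie at 0%, and the core subunits over 10% run from *Psma3* (5.33 FPKM) to *Psmb3* (105.7 FPKM).

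Assembly factors were expressed below the median of the subunits they help to place. The chaperones of the cap base were *Psmd10* (gankyrin, 26.6 ± 2.84 FPKM), *Psmd5* (S5b, 20.3 ± 0.527) and *Psmd9* (p27, 13.3 ± 0.759). The 4 chaperones of the alpha ring were *Psmg1* with 14.56, 16.46 and 14.58 FPKM, *Psmg4* with 11.46, 14.18 and 11.2 FPKM, *Psmg2* with 10.82, 8.55 and 12.34 FPKM and *Psmg3* with 8.58, 8.63 and 6.87 FPKM. Each of the 3 cap chaperone means was under the base median of 68.8 FPKM. Each of the 4 alpha ring chaperone means was under the alpha median of 40.1 FPKM. *Pomp*, the chaperone that matures the beta rings and bears no Psm symbol, was higher than these 7 chaperones. It had 69.63, 66.85 and 70.43 FPKM, under the beta median of 105.7 FPKM.

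Among the alternative activators, which open the core in place of the cap, *Psme3* was highest. It encodes nuclear PA28gamma and had 72.13, 82.36 and 64 FPKM. *Psme1*, which encodes the interferon-inducible PA28alpha, had 42.6, 43.49 and 39.27 FPKM and stood at 0.591, 0.528 and 0.614 of *Psme3*, but at 1.04 of it when lengths of the longest coding transcripts were used, so their order depended on the length. *Psme2*, whose product PA28beta forms a ring with PA28alpha, had 13.64, 12.7 and 11.19 FPKM, and *Psme1* was 3.35 ± 0.203 times as high. A near-identical gene, *Psme2b-ps* (chr11:48758856-48759692, - strand), shares 59.3% of the words of *Psme2* and had 38.16, 37.2 and 35.53 FPKM. Added up, *Psme2* and this copy had 51.8, 49.9 and 46.72 FPKM, and *Psme1* was 0.845 ± 0.0249 of the sum. The sum joins genes of 1764 and 837 exon bases, so it is not a level of *Psme2*. With each level divided by the share of words found in its own gene alone, *Psme1* had 48.9 and *Psme2* 30.7 FPKM on average. *Psme1* was therefore above *Psme2* both as deposited and after this division, and was below only the sum with the copy. *Psme4*, which encodes PA200, had 11.92, 9.54 and 13.53 FPKM, and *Psmf1*, which encodes the inhibitor PI31, had 18.33, 19.82 and 17.55 FPKM.

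Genes that work with the proteasome but lie outside the symbol rule were also present. Of 13 listed proteasome-bound or assembly genes 10 were matched in the files, and these 10 had at least 1 FPKM in each replicate, against 44.8% of protein-coding genes. They were led by *Shfm1*, which encodes the smallest lid component, with 211.81, 197.06 and 219.25 FPKM. The 10 genes of shuttling and of proteasome gene regulation all reached 1 FPKM as well, against the same background. *Nfe2l1*, which encodes Nrf1, had 83.03, 89.02 and 68.9 FPKM, and *Nfe2l2*, which encodes Nrf2, had 118.88, 91.14 and 141.77 FPKM. *Ddi2*, the protease that activates Nrf1, had 4.04, 3.75 and 4.59 FPKM. Of 6 ubiquitin and activating enzyme genes 5 reached 1 FPKM (background 44.8%), with *Ubb* at 247.3 ± 12.5 FPKM and *Uba1* at 204.0 ± 34.7 FPKM.

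Replicate differences of the members followed the GC content of the transcript. The median coefficient of variation over 47 members with a mean above 0 was 8.89%, and it was 11.6% over protein-coding genes with a mean of at least 1 FPKM. With the same limit for both, at least 1 FPKM in all replicates, it was 8.16% for members and 11.4% for protein-coding genes. Replicate 3 was above replicate 4 in 26 of the 44 members of at least 1 FPKM, against 51.3% of protein-coding genes. In 23 of 44 the order from high to low was replicate 3, 1, 4 (39.5% of protein-coding genes), and in 13 it was 4, 1, 3 (37.2%). Of the 16 members with a GC content over 52%, 16 stood above their replicate 4 level in replicate 3, at a median log2 ratio of 0.32. Of the 8 members at 46% or under, 0 were, with a median of -0.32, and of the 20 between, 10 were.

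Across the 45 members above 0 in replicates 3 and 4, the log2 ratio of these replicates had a Pearson's r of 0.822 and a Spearman's rho of 0.836 with GC content, and across 10005 protein-coding genes r was 0.751 and rho 0.781. These points are genes of the same libraries and not independent replicates, so no p is given. *Psmd3*, the member with the largest log2 ratio (0.73), and *Psmc6*, with the smallest (-0.75), stood at the ends of the range of GC content. After the median deviation in each of 20 GC bins was subtracted, the median coefficient of variation of the members was 5.42%. That of protein-coding genes was 7.22%. Before any correction the median of the members was 4.89% without replicate 3, 6.42% without replicate 4 and 12.5% without replicate 1.

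**Figure D5:**
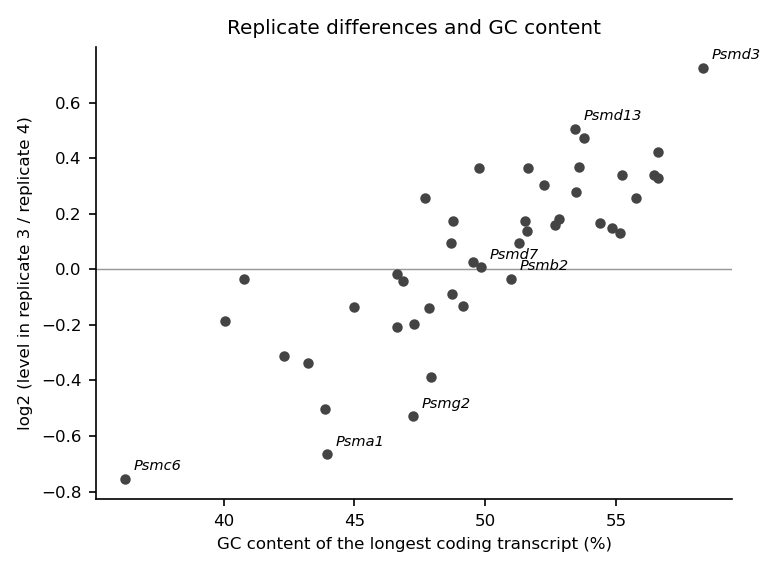
log2 ratio of the level in replicate 3 to that in replicate 4 against the GC content of the longest coding transcript (%), for the 44 members that reached 1 FPKM in each library. The ratio rises from -0.75 for *Psmc6* to 0.73 for *Psmd3*, and the 16 members over 52% GC lie above 0.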

How the data were processed

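RNA-seq of untreated melan-a cells in 3 replicates was used. Per the labels and the methods of the study, libraries were stranded, read ends were trimmed, reads were aligned to mm9 with STAR 2.3.0e, rRNA reads were removed with RSeQC and genes were counted with HTSeq 0.5.3p3 on an Ensembl annotation. The authors deposited FPKM values scaled by TMM, which hold no counts. Which length they divided by for genes with several transcripts could not be determined from the values, and the counting mode and the treatment of multiply aligned reads are not given in the sources used here.

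Symbols, positions and GC content came from an mm9 annotation (GENCODE M1), which lacked 374 genes of the files. No value was filtered or given a pseudocount except as an alternative. The scaled library size was the one at which FPKM times length gave values nearest to whole reads, over 168, 202 and 106 genes with 1 transcript, at mean distances of 0.0507, 0.0542 and 0.0615 reads. Intervals of counting error were not formed. Words of 50 bases were searched on both strands of the genome. Both procedures were tested on simulated data and gave back the values put in. Ratios were formed within each replicate, and no test was made.

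The members and lists were chosen with earlier results of these data known. All members are named, and other genes only from lists of functions and markers or where they share sequence with a member. The alternatives were each replicate left out, a pseudocount of 1 FPKM, other lengths, sums, filters on low values, rescaling and a GC correction. Those on words shared with other loci, the share without *Psmb6* and *Psmb9* and the lid without *Psmd8* were chosen after seeing the data. Python 3.11.15 was used, with pandas 2.3.3, numpy 2.4.6 and, for the plots, matplotlib 3.10.9. A few listed genes are not reported here.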

Additional observations from a re-analysis of the deposited data

How the results depend on the processing

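With 1 condition and 3 replicates the data give levels and ratios but no tested difference, FPKM carries no counts, and genes with copies or overlapping entries are uncertain. No paired analysis was possible because all samples belong to 1 group. Of the planned settings other than leaving out a replicate, 2 reversed a result, namely the core to cap ratio as a sum over subunits (0.845) and the *Psme1* to *Psme3* ratio with the longest coding transcript length (1.04). That length also moved the alpha to beta ratio to 0.658, base to lid to 1.51, *Psmb5* to *Psmb8* to 79.5, the immune share to 3.76% and the core range to 57.4-fold. A pseudocount of 1 FPKM moved *Psmb5* to *Psmb8* to 27.7, the immune share to 7.35% and the core range to 28.4-fold. Sums moved base to lid to 1.14, and keeping subunits of at least 10 FPKM moved core to cap to 1.21. The median member level was 43.4 over members of at least 1 FPKM and 100.4 with each replicate rescaled to the same sum of values. Over members of at least 1 FPKM, the GC correction took the median coefficient of variation from 8.16% to 5.42%.

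Settings chosen after seeing the data also moved values. Division by the share of unrepeated words gave core to cap 1.29, *Psmb5* to *Psmb8* 318, *Psmb7* to *Psmb10* 4.91, an immune share of 5.39%, *Psme1* to *Psme3* 0.676 and a core range of 37.8-fold. Keeping subunits with at most 10% of words elsewhere gave core to cap 1.54, base to lid 1.62 and a core range of 5.53-fold. The immune share without *Psmb6* and *Psmb9* was 14.6%. Leaving out 1 replicate in turn moved the core range (32.8 to 35.6-fold) and the coefficient of variation (4.89% to 12.5%) and left the other ratios within their SD. The cause of these changes was not tested beyond the construction of each setting. The *Psmb6* to *Psmb9* ratio was not run, since *Psmb9* was listed at 0 in 2 of 3 replicates.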
